A study of Mus musculus with 12 samples.

Results

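Goblet cells of the intestinal epithelium make the mucus that covers it, and 9 genes of that program were followed here: *Muc2*, *Tff3*, *Clca1*, *Fcgbp*, *Zg16*, *Agr2*, *Spink4*, *Spdef* and *Retnlb*. They were taken by name from a table of 34245 rows of raw counts, where they occupy 13 rows, because *Muc2* is split into 5 rows. RNA had been sequenced from 2 sorted populations of the small intestine of male C57BL/6 mice that carry the Lgr5-EGFP-IRES-creERT2 allele, in all groups. Intestinal stem cells (ISC) were GFP-high, DAPI-negative crypt cells, and adult enterocytes (AE) were Epcam-high villus cells negative for CD31, CD45 and DAPI, a gate that holds no marker against goblet cells. Young mice were about 8 and aged mice about 27 months old, and each of the 4 groups (young ISC, aged ISC, young AE and aged AE) had 3 libraries, named Y1, Y2 and Y3 or O1, O3 and O5 in both cell types. The GFP of this allele is read from the *Lgr5* locus and is known to be expressed in patches of crypts, so that the ISC are those of the labelled crypts. The study's methods list as many mouse ages per cohort as there are libraries per cell type, and P-values measure the spread between these libraries. The titles of 8 of the 12 samples pair a code with the name of another group, so libraries were grouped by the names of the count columns, and marker genes check these names for cell type and not for age.

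Goblet cells descend from Lgr5-positive stem cells through secretory progenitors, and mature while they move up onto the villus. *Muc2* encodes the gel-forming mucin whose polymers are the scaffold of intestinal mucus, *Fcgbp*, *Clca1* and *Zg16* encode proteins secreted with it, and *Tff3* encodes a trefoil peptide that takes part in epithelial repair. *Agr2* encodes a protein disulfide isomerase of the endoplasmic reticulum that mucin production needs, *Spdef* an ETS-family transcription factor of goblet cell maturation, *Spink4* a Kazal-type protease inhibitor peptide and *Retnlb* a secreted resistin-like protein.

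The upstream sequence of the members is shown because most of them were higher together in AE. RefSeq promoters on GRCm38.p6 matched 4 of the 9 genes, *Muc2*, *Fcgbp*, *Agr2* and *Spdef*, and none was matched for *Tff3*, *Clca1*, *Zg16*, *Spink4* or *Retnlb*. The 250 bases before each RefSeq start site are written 5′ to 3′ along the gene, and for *Agr2* the end of this window lies inside the gene as GENCODE annotates it. Capitals mark every match, on either strand, to 4 motifs: TATAAA, the E-box CAGCTG, the GATA motif GATAAG and CAGGAT, which holds the GGAT core that SPDEF prefers.
*Muc2* (chr7:141690090-141690339, plus strand): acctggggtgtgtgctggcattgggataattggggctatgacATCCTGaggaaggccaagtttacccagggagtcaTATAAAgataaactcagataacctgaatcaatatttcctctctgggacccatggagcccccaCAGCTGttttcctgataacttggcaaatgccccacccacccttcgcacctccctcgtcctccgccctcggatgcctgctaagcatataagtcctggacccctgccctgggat
*Fcgbp* (chr7:28070986-28071235, plus strand): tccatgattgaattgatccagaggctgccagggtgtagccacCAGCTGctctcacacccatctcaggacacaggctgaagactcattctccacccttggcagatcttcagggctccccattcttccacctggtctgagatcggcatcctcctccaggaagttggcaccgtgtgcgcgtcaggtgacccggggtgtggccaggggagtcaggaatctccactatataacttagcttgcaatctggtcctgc
*Agr2* (chr12:35992675-35992924, plus strand): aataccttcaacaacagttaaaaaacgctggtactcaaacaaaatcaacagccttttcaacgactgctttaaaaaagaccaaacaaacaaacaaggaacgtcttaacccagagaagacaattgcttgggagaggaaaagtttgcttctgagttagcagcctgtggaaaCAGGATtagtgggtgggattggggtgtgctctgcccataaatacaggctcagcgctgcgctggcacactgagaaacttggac
*Spdef* (chr17:27728952-27729201, minus strand): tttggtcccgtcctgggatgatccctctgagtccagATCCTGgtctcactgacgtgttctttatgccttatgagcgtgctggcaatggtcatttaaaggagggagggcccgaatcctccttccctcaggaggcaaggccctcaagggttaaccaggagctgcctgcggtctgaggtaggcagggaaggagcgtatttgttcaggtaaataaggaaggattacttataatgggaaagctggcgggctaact
CAGGAT or its reverse complement was found in 3 of the 4 windows (*Muc2*, *Agr2* and *Spdef*), against 13.6% of 32817 windows of the same length. CAGCTG was found in *Muc2* and *Fcgbp*, against 13.0% of windows. TATAAA was found in *Muc2* alone, against 12.4%, and GATAAG in 0 of the 4, against 6.6%. The motifs do not overlap in these windows. Such matches describe letters and were not tested as sites.

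Library totals lay between 11893817 and 26796461 counts in 11 libraries and reached 110794420 in Y3 of young AE, and no 2 libraries of a group agreed within sampling noise (chi-square over its degrees of freedom at 29.0 or more in 12 of 12 pairs). Values are CPM, the count relative to a library total that TMM scaling has corrected for composition. Changes are log2 fold changes from edgeR's quasi-likelihood test with their standard errors (SE), with P-values adjusted by the Benjamini-Hochberg method over all genes tested (FDR). The sort was checked with *Lgr5*, the stem cell marker, at 79.6 to 146 CPM in ISC and 0.551 to 4.71 CPM in AE, and with *Vil1*, a brush border gene, at 417 to 752 CPM in ISC and 4268 to 6158 CPM in AE.

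Goblet cell genes took a large share of the RNA of the AE libraries. All rows of the 9 genes together held between 2.48% and 4.98% of the counts of an AE library, and between 0.213% and 0.320% of an ISC library. *Fcgbp* (chromosome 7, 28071236 to 28120862 of GRCm38, exon length 10497 bases) was the gene with the most counts of all in the 3 young AE libraries and in O3 of aged AE, and ranked 2 in O1 and 3 in O5, with 1.34% to 2.37% of all counts. In ISC it ranked between 24 and 45. The 18 enterocyte markers summed to between 78308 and 125397 CPM in AE, and the 9 goblet cell genes to between 29911 and 61653 CPM. In such bulk libraries, fewer goblet cells and less RNA per goblet cell cannot be told apart.

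Of the 9 genes, 7 were higher in AE than in ISC in young mice (called at FDR under 0.05), 0 were lower and 2 did not pass. Over all genes tested, 55.6% passed in young mice, 28.9% higher and 26.7% lower in AE. In aged mice, where *Retnlb* was too low to be tested, 7 of 8 genes were higher in AE and 1, *Spink4*, was lower, against 64.9% of all genes called, 30.6% higher and 34.2% lower. The libraries of AE and ISC did not overlap for 7 members at each age, against 62.9% of genes in young and 69.9% in aged mice. The median log2 fold change of the 8 members other than *Retnlb* was 3.92 in young and 3.98 in aged mice, against 0.15 and -0.13 for all genes tested. A rise of this kind was not particular to them, as enterocyte markers had medians of 3.74 and 4.87 and enteroendocrine markers 4.16 and 2.68. Tuft cell markers were at 0.85 and 0.40, and Paneth cell markers at -3.42 and -3.97.

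**Figure D1:**
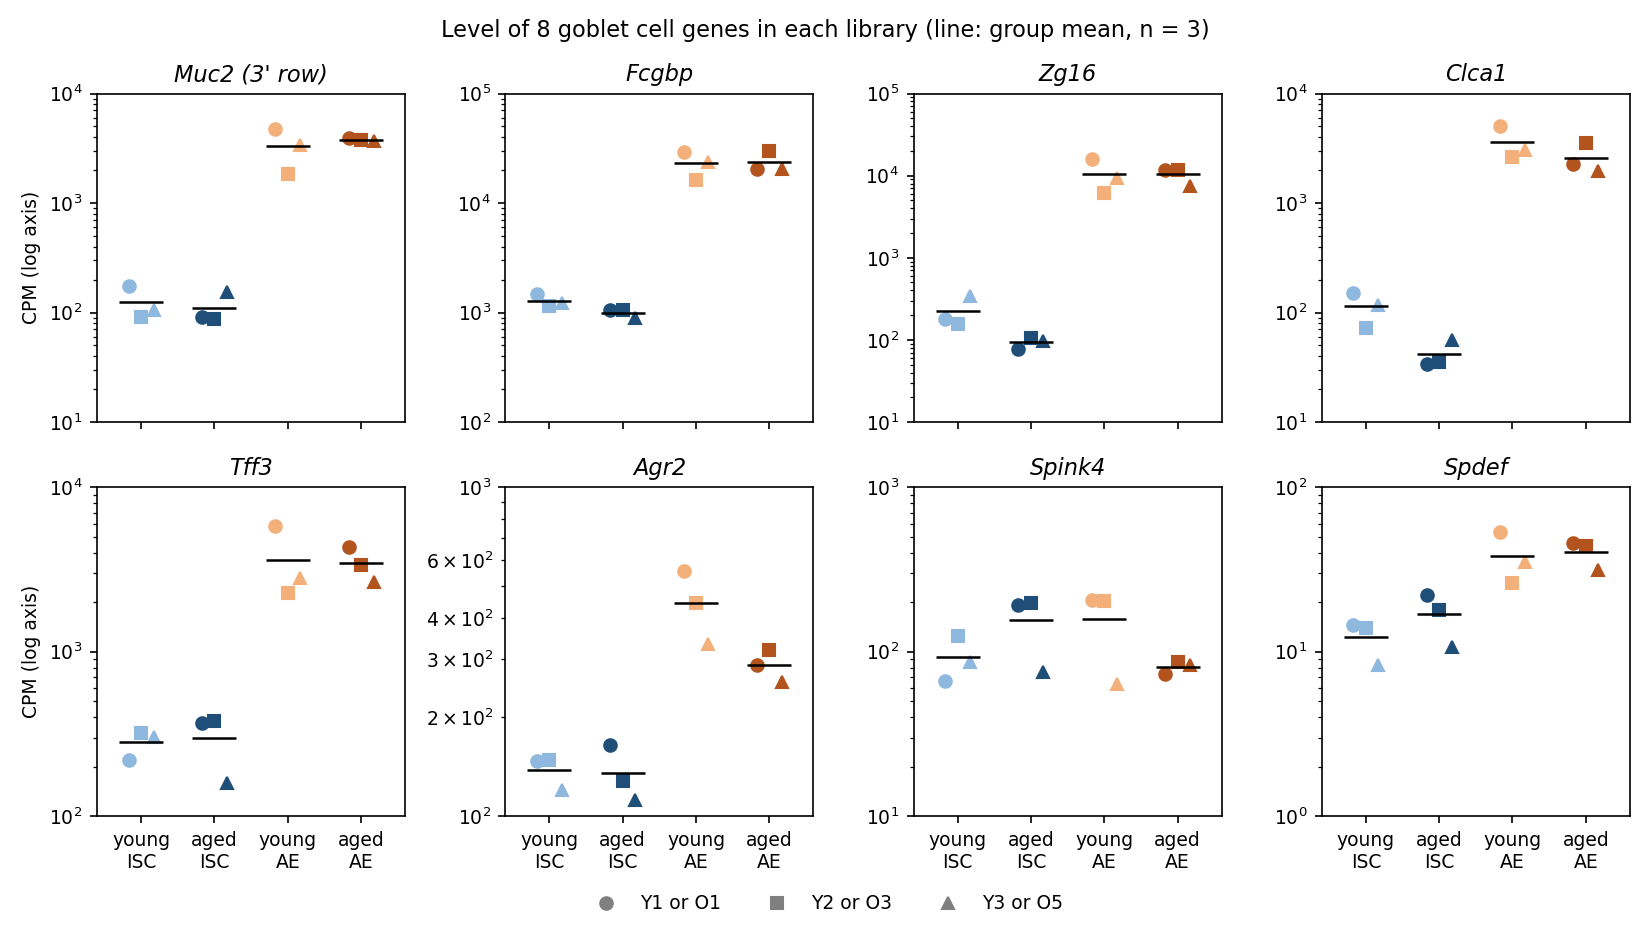
Level of 8 goblet cell genes in each library, as CPM on log axes, by group, with a symbol per library code and a line at the group mean (n = 3 libraries). For every gene but *Spink4*, the 6 AE libraries sit above the 6 ISC libraries, and *Clca1*, *Zg16* and *Fcgbp* are lower in each aged ISC library than in any young one.

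*Zg16* (chromosome 7, 127050156 to 127087328), a small lectin of the mucus that binds Gram-positive bacteria, differed most between the cell types. It was at 180, 157 and 343 CPM in Y1, Y2 and Y3 of young ISC and at 77.5, 106 and 95.7 CPM in O1, O3 and O5 of aged ISC. Young AE held 15851, 6199.5 and 9465 CPM and aged AE 11822, 11799 and 7581 CPM, so that the lowest AE library lay far above the highest ISC library. The AE-to-ISC difference was log2 5.53 (SE 0.54, FDR = 0.000160) in young and 6.73 (SE 0.40, FDR = 3.89e-07) in aged mice, or 46.3-fold and 107-fold.

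*Clca1* (chromosome 3, 145003817 to 145032776) encodes a secreted metalloprotease that acts on the mucus network. It was at 151, 72.8 and 117 CPM in young ISC and at 34.0, 35.5 and 56.3 CPM in aged ISC. The AE libraries held 5073, 2607 and 3049 CPM in young and 2254, 3513 and 1974 CPM in aged mice. It was thus 31.4-fold higher in AE of young mice (log2 4.97, SE 0.42, FDR = 0.000103) and 58.8-fold in aged mice (log2 5.88, SE 0.37, FDR = 5.23e-07).

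*Muc2* was read from the row with most of its counts, the 3′ part of the gene (chromosome 7, 141744612 to 141754693). It was at 175, 91.8 and 106 CPM in young ISC and at 91.3, 86.5 and 154 CPM in aged ISC, groups that overlap. In AE it was at 4725, 1858 and 3356 CPM in young and at 3936, 3731 and 3660 CPM in aged mice, where the 3 libraries lay closest together. The AE-to-ISC difference was log2 4.74 (SE 0.45, FDR = 0.000143) in young and 5.02 (SE 0.33, FDR = 6.01e-07) in aged mice. The other 4 rows, from the 5′ part, were higher in AE as well, by log2 4.14 to 4.68 in young and 5.03 to 5.43 in aged mice.

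*Fcgbp*, which encodes a large protein of mucin-like repeats bound to the mucus, was at 1463, 1156 and 1230.3 CPM in young ISC and 1047, 1044 and 883 CPM in aged ISC. In AE it was at 29400.5, 16288 and 23458 CPM in young and 20549, 29813 and 20403 CPM in aged mice. The AE libraries exceeded the ISC libraries by log2 4.17 (SE 0.41, FDR = 0.000161) in young and 4.50 (SE 0.41, FDR = 4.85e-06) in aged mice.

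*Tff3* (chromosome 17, 31125306 to 31129646) was at 221, 320.1 and 304 CPM in young ISC and at 366, 377 and 158 CPM in aged ISC. AE libraries held 5788, 2285 and 2798 CPM in young and 4343, 3368 and 2647 CPM in aged mice. Library O5 of aged ISC and Y1 of young AE stood apart from the other libraries of their groups. The AE-to-ISC difference was log2 3.68 (SE 0.42, FDR = 0.000262) in young and 3.45 (SE 0.39, FDR = 2.18e-05) in aged mice.

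*Agr2* and *Spdef*, the folding enzyme and the transcription factor, were higher in AE by less than *Zg16*, *Clca1*, *Muc2*, *Fcgbp* and *Tff3* were. *Agr2* (chromosome 12, 35992907 to 36004087) was at 147, 148 and 119.8 CPM in young ISC and 165, 128 and 112 CPM in aged ISC. Young AE held 556, 443 and 334 CPM, and aged AE 288, 320.0 and 257 CPM. Cell types differed by log2 1.69 (SE 0.22, FDR = 0.000485) in young and 1.03 (SE 0.19, FDR = 0.000774) in aged mice. *Spdef* (chromosome 17, 27714352 to 27728951) was at 14.5, 13.9 and 8.25 CPM in young ISC and 22.2, 17.9 and 10.6 CPM in aged ISC, against 53.9, 26.0 and 35.2 CPM in young AE and 46.0, 43.8 and 31.6 CPM in aged AE. It was higher in AE by log2 1.65 (SE 0.32, FDR = 0.00286) in young and 1.19 (SE 0.26, FDR = 0.00258) in aged mice.

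*Spink4* (chromosome 4, 40920052 to 40931395) was the member that did not follow the others. It was at 66.5, 124 and 86.5 CPM in young ISC, at 192, 199 and 75.4 CPM in aged ISC, at 206, 204 and 63.4 CPM in young AE and at 73.2, 86.1 and 82.5 CPM in aged AE. The groups overlap in both comparisons of the cell types. In young mice the difference did not pass (log2 0.77, 95% interval -0.34 to 1.87, FDR = 0.197), and without Y3 of young AE, the deepest library, it passed in the direction of AE (log2 1.08, FDR = 0.00696). In aged mice it was lower in AE (log2 -1.02, SE 0.32, FDR = 0.0201), and this call was lost without any one of O1 or O3 of aged ISC or O1 or O5 of aged AE (FDR from 0.0588 to 0.0723) and in a fit on all 12 libraries (FDR = 0.0876).

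*Retnlb* (chromosome 16, 48816856 to 48818891) was at the limit of detection, set at 3 counts in a library. It had 0, 11 and 0 counts in young ISC, 2, 0 and 0 in aged ISC, 0, 1 and 0 in young AE and 0, 0 and 0 in aged AE. The 11 counts were all in library Y2 of young ISC (0.624 CPM). No fold change is given for it.

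**Figure D2:**
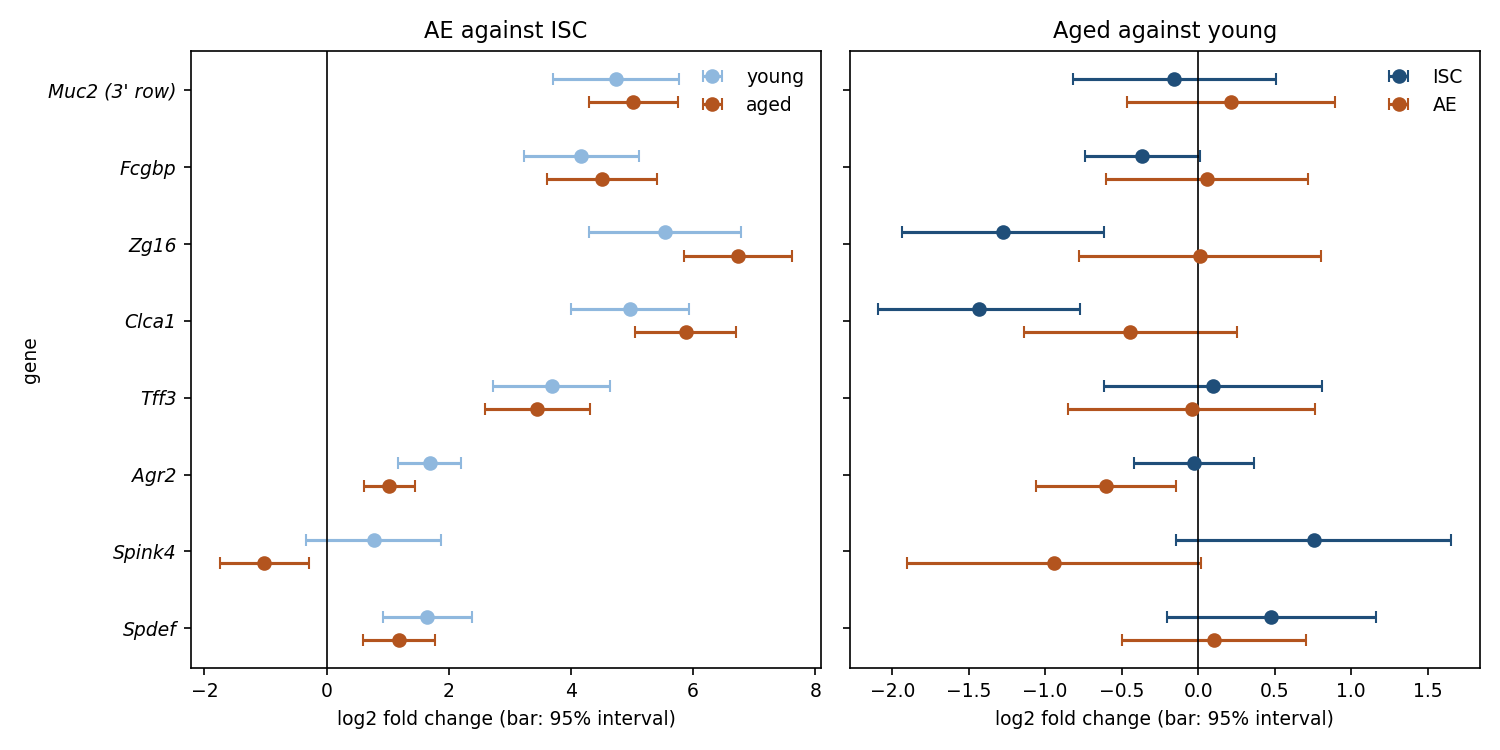
Log2 fold change of 8 genes with its 95% interval (edgeR), AE against ISC at each age on the left and aged against young in each cell type on the right. The left panel shows *Zg16*, *Clca1*, *Muc2*, *Fcgbp* and *Tff3* between 3.45 and 6.73, *Agr2* and *Spdef* between 1.03 and 1.69, and *Spink4* on both sides of 0. The right panel shows that intervals without 0 belong to *Clca1* and *Zg16* in ISC and *Agr2* in AE, none of which passed FDR under 0.05.

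The mixture of goblet cell transcripts differed between the cell types. Of all counts of the 9 genes, *Zg16* held 20.4% to 27.2% in AE libraries and 3.88% to 14.8% in ISC libraries. *Agr2* held 0.603% to 1.47% in AE and 5.16% to 8.25% in ISC, *Spink4* 0.148% to 0.677% against 2.74% to 9.96%, and *Spdef* 0.0824% to 0.106% against 0.355% to 1.11%, with no overlap of the 6 AE and 6 ISC libraries. *Fcgbp* held 47.3% to 56.2% in AE and 52.3% to 60.2% in ISC, which overlap. Shares of *Tff3* (6.35% to 10.01% in AE and 9.08% to 18.9% in ISC), *Muc2* and *Clca1* overlapped as well.

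Levels of different genes were compared per kilobase of exon. In AE, *Zg16* (8357 ± 3905 CPM per kb in young and 8274 ± 1943 in aged mice, SD, n = 3 libraries) and *Tff3* (7350.1 ± 3837 and 7004 ± 1727) were highest. Their spreads over libraries overlapped, while within each AE library *Zg16* was above *Tff3*. The values were 12610 against 11740 CPM per kb in Y1 of young AE and 9386 against 6832 in O3 of aged AE. *Fcgbp* followed at 2196 ± 626 and 2247 ± 514 CPM per kb, then the 3′ row of *Muc2* at 1132 ± 490.1 and 1290.4 ± 48.9, and *Clca1* at 947 ± 348 and 683 ± 217. The 5′ rows of *Muc2* averaged only 41.9 to 60.5 CPM per kb in young and 66.5 to 89.9 in aged AE. The place of *Muc2* among these genes thus depends on the part of the gene that is read. In ISC, *Tff3* was highest at 571 ± 108 CPM per kb in young and 609 ± 251 in aged mice. *Spink4* followed in aged ISC at 326 ± 145 CPM per kb. It was below *Tff3* in each aged ISC library (403 against 743 in O1, 417 against 765 in O3 and 158 against 320 in O5). In young ISC *Spink4* stood at 194 ± 61.7 beside *Zg16* at 180.3 ± 80.8. *Spdef* was lowest of the detected members in each group, at 5.32 to 17.6 CPM per kb.

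Whether these genes change with age was asked first in ISC. No member passed, 0 of 9, against 0% of 15552 genes tested with edgeR. The lowest FDR of any gene was 0.123, so *Rps4l* and *Ccr2*, which the study called in both cell types, did not pass either. That no member passed thus does not show that the members are unchanged. At an unadjusted P under 0.05 there were 2 members (*Clca1* and *Zg16*) and 784 genes in all, and DESeq2 called the same 2 members, both lower, among 58 genes. The libraries of young and aged ISC did not overlap for 3 members, *Clca1*, *Zg16* and *Fcgbp*, all lower in aged mice, against 8.84% of all genes in either direction. Of the log2 fold changes of the 8 members other than *Retnlb*, 3 were above and 5 below 0, with a median of -0.092 against 0.01 for all genes.

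*Clca1* had the largest difference among the members above the limit of detection, with 41.9 ± 12.5 CPM in aged against 114 ± 39.4 CPM in young ISC (SD, n = 3). Its change was log2 -1.43 (SE 0.29, FDR = 0.456 with edgeR and 0.0015 with DESeq2), and it lay between -1.69 and -1.18 when any library was left out. *Zg16* stood at 93.1 ± 14.4 CPM in the aged and 227 ± 102 CPM in the young libraries, a change of log2 -1.28 (SE 0.29, FDR = 0.643 with edgeR and 0.00793 with DESeq2). It was -0.85 without Y3 of young ISC, the library with the most *Zg16*. *Fcgbp* had a log2 fold change of -0.36 (SE 0.17, FDR = 0.996).

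Markers of other cell types were read in the same libraries. Of 18 enterocyte markers, 17 had log2 fold changes below 0 in ISC (median -0.94), 7 of them without overlap and 0 called. Their summed level was 4811, 4671 and 10975 CPM in Y1, Y2 and Y3 of young ISC and 2100.3, 6441 and 3575 CPM in O1, O3 and O5 of aged ISC, and no marker was at 0. The ISC sort had no gate against leukocytes, and of 10 leukocyte markers tested of 16 listed, 7 were below 0 (median -1.09), 4 without overlap, 4 at an unadjusted P under 0.05 and 0 called. Their summed level was low, from 16.1 to 27.6 CPM in young and from 14.6 to 23.8 CPM in aged ISC, with 3 and 2 of the 16 markers at 0 in all libraries of the group. All 12 tuft cell markers were below 0 too (median -0.23), with 0 without overlap, and summed to between 246 and 520.3 CPM in young and between 151 and 424 CPM in aged ISC. Other lists went the other way, with 12 of 14 enteroendocrine markers above 0 (median 0.31). So were 13 of 15 proliferation markers (median 0.11) and 8 of 12 stem cell markers (median 0.12). Of 11 Paneth cell markers, 7 were below 0 (median -0.13), and 0 were called in each of these lists. The part of these cells in the result was not tested. Of 13 other goblet cell markers, 0 were called, 6 were above and 7 below 0, with a median of -0.03.

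The remaining members did not pass in ISC, and their intervals leave room for changes in both directions. The log2 fold change was -0.16 for *Muc2* (95% interval -0.82 to 0.51), -0.03 for *Agr2* (-0.42 to 0.36), 0.10 for *Tff3* (-0.62 to 0.81), 0.48 for *Spdef* (-0.20 to 1.16) and 0.75 for *Spink4* (-0.15 to 1.65). All 5 had overlapping libraries, and *Muc2*, *Agr2* and *Tff3* changed sign when single libraries were left out.

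In AE, no member passed either, 0 of 8 tested, against 0% of 16265 genes. The lowest FDR of any gene was 0.102, so the same limit holds here. At an unadjusted P under 0.05 there was 1 member (*Agr2*) and 775 genes in all, and DESeq2 called 0 members. *Agr2* was the 1 member whose young and aged libraries did not overlap, against 10.9% of all genes. Young AE averaged 445 ± 111 CPM and aged AE 288 ± 31.7 CPM (SD, n = 3), a change of log2 -0.60 (SE 0.20, FDR = 0.844). *Spink4* had a log2 fold change of -0.94 (SE 0.41, FDR = 0.844), and its library Y3 of young AE lay below all 3 aged libraries. *Clca1* was at -0.44 (95% interval -1.14 to 0.25), *Muc2* at 0.21 (-0.47 to 0.89), *Spdef* at 0.10 (-0.50 to 0.70), *Fcgbp* at 0.06 (-0.60 to 0.72), *Zg16* at 0.01 (-0.78 to 0.80) and *Tff3* at -0.04 (-0.85 to 0.76). *Zg16* changed sign with the scaling, the filter or the samples fitted, and *Zg16*, *Fcgbp*, *Tff3*, *Muc2* and *Spdef* did so when single libraries were left out.

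Marker lists of other cells are given beside *Agr2* and *Spink4* in AE. All 15 proliferation markers had log2 fold changes below 0 (median -1.19), and 8 of 12 stem cell markers did (median -0.96), with 0 called. Library Y2 of young AE was highest for both, with 510.04 CPM of proliferation and 699 CPM of stem cell markers, against 102 to 109 and 187 to 279 CPM over the aged libraries. Without Y2 the change of *Agr2* was log2 -0.60 and that of *Spink4* -0.71. With each library left out in turn, *Agr2* ran from -0.77 (without Y3) to -0.42 (without Y1). *Spink4* ran from -1.32 (without Y3) to the -0.71 without Y2. All 12 tuft cell markers had log2 fold changes below 0 (median -0.50), as had 11 of 14 enteroendocrine markers (median -0.66) and 8 of 11 Paneth cell markers (median -0.95), while 18 of 18 enterocyte markers were above 0 (median 0.33), with 0 called in each list. Summed tuft cell markers ran from 395 to 1189 CPM over the young and from 505 to 601 CPM over the aged libraries. Their part in the result was not tested.

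The difference of the age effects between AE and ISC was tested over all 12 libraries, and 0 of 9 members passed, against 0.00575% of genes (1 of 17377). At an unadjusted P under 0.05 there were 2 members and 675 genes, and DESeq2 called 0 members. These 2 were *Spink4*, at -1.71 (SE 0.64) on the log2 scale, and *Zg16*, at 1.27 (SE 0.53), both with FDR = 1.00. A smaller change with age in one cell type than in the other was thus not shown for any member.

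Ratios to *Muc2* within a library do not depend on scaling between libraries. In ISC, *Clca1* was at log2 ratios of -0.20, -0.33 and 0.14 to *Muc2* in Y1, Y2 and Y3, and of -1.42, -1.28 and -1.45 in O1, O3 and O5. The aged libraries were thus 1.25 lower on the log2 scale (-0.13 ± 0.25 in young and -1.39 ± 0.09 in aged mice, SD, n = 3, exact two-sided permutation P = 0.1, the lowest P possible with 3 against 3). It was the 1 of 7 members whose ratios did not overlap, against 4.8% of genes in ISC. Leaving out Y1, O3 or O5 raised this count to 2, 2 and 4 members. In AE, *Agr2* was the 1 member without overlap, against 7.55% of genes, with -2.83 ± 0.67 in young and -3.72 ± 0.15 in aged mice (exact two-sided permutation P = 0.1). Without Y3 of young AE, 5 members did not overlap in AE, and without O3 of aged AE, 3. Fewer libraries separate more easily, and the share of all genes was not computed with a library left out. The counts with a library left out therefore cannot be set against 4.8% and 7.55%.

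The authors' log2 values are listed for 49 genes, which the study called for age in ISC or AE on these libraries (DESeq2, FDR under 0.05). *Clca1* and *Zg16* are among them, while edgeR called neither for age here. *Clca1* was at 14.20 ± 0.56 in young and 12.79 ± 0.44 in aged ISC (SD, n = 3), and *Zg16* at 15.06 ± 0.57 and 13.88 ± 0.20, without overlap (exact two-sided permutation P = 0.1 for each). In AE, *Clca1* was at 18.51 ± 0.48 and 17.94 ± 0.45 and *Zg16* at 19.87 ± 0.65 and 19.81 ± 0.41, and the libraries overlapped. These are the same libraries on another scale and not further evidence.

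**Figure D3:**
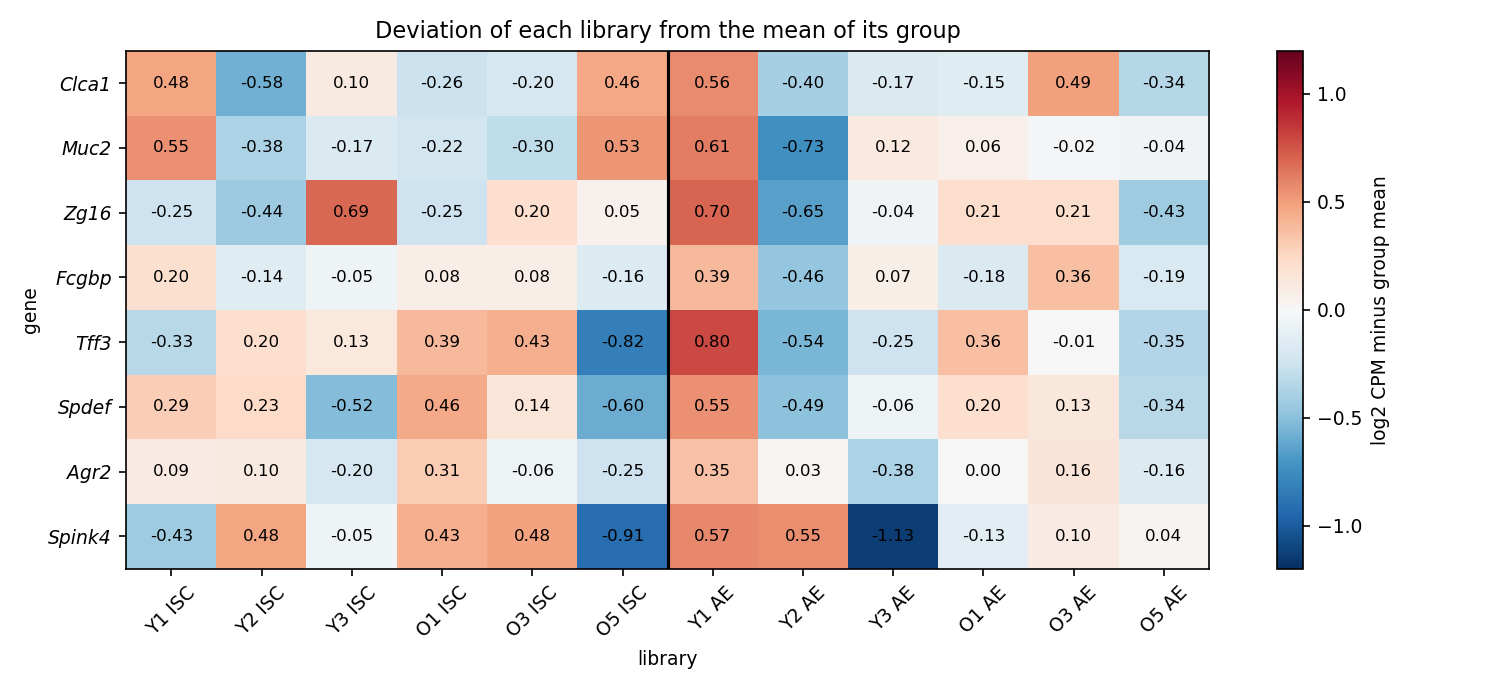
Deviation of each library from the mean of its group, as log2 CPM, for 8 genes (rows) in 12 libraries (columns), from blue (below the mean) to red (above). *Clca1* and *Muc2* deviated together in most libraries, *Spink4* was at -0.91 in O5 of aged ISC and -1.13 in Y3 of young AE, and Y1 of young AE was above its group mean for all 8 genes.

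Within groups, the members did not vary as one block. Over the 12 libraries, each set against the mean of its group, *Clca1* correlated with *Muc2* at a Pearson r of 0.80, and *Tff3* with *Spdef* at 0.75. *Agr2* correlated with *Spdef* at 0.74 and with *Spink4* at 0.72. *Muc2* stood at -0.02 to *Tff3*, 0.02 to *Agr2* and -0.52 to *Spink4*. These are descriptions over libraries that share depth and scaling. Library O5 of aged ISC was high in *Muc2* (0.53 above its group mean on the log2 scale) and *Clca1* (0.46), and low in *Tff3* (-0.82), *Spdef* (-0.60) and *Spink4* (-0.91).

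The genes most like the mean of the members were sought among 10548 other genes, over 12 libraries. With values set against their group means, the highest Pearson r belonged to *Bcas1* (0.92), *Fam174b* (0.90), *Hk1* (0.89), *Rin3* (0.89) and *Fam183b* (0.89). Without that centring, where the difference between AE and ISC dominates, it belonged to *Lrrc26* (0.995), *9530053A07Rik* (0.994), *Syt7* (0.993), *Capn9* (0.993) and *Ero1lb* (0.992). *Bcas1*, *Lrrc26* and *Capn9* are also among the 13 other goblet cell markers. Centring leaves fewer free values than libraries, and no level expected by chance was computed for the highest of so many correlations.

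Other genes of the goblet cell program were read by lists. Of the 13 other goblet cell markers, 12 were higher in AE of young mice and 0 lower (median log2 2.62), against 28.9% and 26.7% of all genes. For aged mice the counts were 10 higher and 1 lower (median 2.58), against 30.6% and 34.2%. *Tspan13*, *Scin* and *Slc12a8* had the highest mean level of the list over the 12 libraries. *Tspan13* was at 41.9 CPM in ISC of young mice and rose to 225 CPM in their AE, and *Scin*, which encodes an actin-severing protein, at 26.0 CPM and 249 CPM. *Slc12a8* was higher in young AE (log2 0.99, FDR = 0.000762) and did not pass in aged mice (0.44, FDR = 0.0626).

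Of 9 transcription factors of the lineage, 6 were higher in AE and 0 lower in young mice, and 5 higher and 1 lower in aged mice, beside the same shares of all genes. *Atoh1*, which sets the secretory fate, was higher by log2 2.29 (SE 0.32, FDR = 0.000661) in young and 1.90 (SE 0.27, FDR = 0.000120) in aged mice. *Klf4* was higher by 3.48 (SE 0.18, FDR = 5.41e-05) and 4.07 (SE 0.24, FDR = 3.38e-07). *Foxa2* was lower in AE than in ISC of aged mice (-1.25, FDR = 0.00147), and *Foxa3* did not pass (-0.30 in young and -0.51 in aged mice). None of the 9 was called for age in either cell type.

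Of 16 tested genes of mucin O-glycosylation, which build the sugar chains of mucins, 11 were higher and 1 lower in AE of young mice, and 11 higher and 4 lower in aged mice. *Gcnt3*, a core 2 and core 4 enzyme, rose by log2 2.45 (SE 0.26, FDR = 0.000196) and 2.36 (SE 0.19, FDR = 2.68e-06). *St6galnac2* was lower in AE of aged mice (-0.76, FDR = 0.00109), and its difference in young mice was -0.44 (FDR = 0.171). Of 12 genes of the secretory endoplasmic reticulum, 3 were higher and 0 lower in young mice, and 2 higher and 4 lower in aged mice, shares no higher than those of all genes. *Ern2*, the goblet cell form of the IRE1 stress sensor, was higher by 1.87 (FDR = 0.00126) and 1.80 (FDR = 3.39e-05), while *Pdia6*, a disulfide isomerase, was lower in AE of aged mice (-1.04, FDR = 0.000275). No gene of either list was called for age. For age in AE, 10 of the 12 endoplasmic reticulum genes were below 0, with a median of -0.48 against -0.04 for all genes and 3 at an unadjusted P under 0.05. *Pdia6* was at -0.74 and *Manf* at -0.54. The O-glycosylation genes had a median of -0.16 in AE, with 12 of 16 below 0.

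The 4 5′ rows of *Muc2* (chromosome 7, 141690340 to 141704611) held a small and uneven share of its counts. The share was 6.56% in Y1 of young ISC (95% exact binomial interval 5.69% to 7.52%), 8.38% in Y2 and 5.07% in Y3. In aged ISC it was 2.75% in O1, 2.91% in O3 and 9.87% in O5 (interval 8.95% to 10.9%). In AE it was 4.82% in Y1, 8.04% in Y2, 5.73% in Y3, 2.43% in O1, 8.93% in O3 and 11.2% in O5. O5 was highest in both cell types, though in ISC its interval overlapped that of Y2 (7.13% to 9.77%). O1 was lowest in AE. In ISC, O1 and O3 were lowest with overlapping intervals (2.22% to 3.36% and 2.15% to 3.84%), while O3 was second highest in AE. Aged and young libraries overlapped. Intervals cover counting error only, as PCR copies of a molecule were not told apart.

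**Figure D4:**
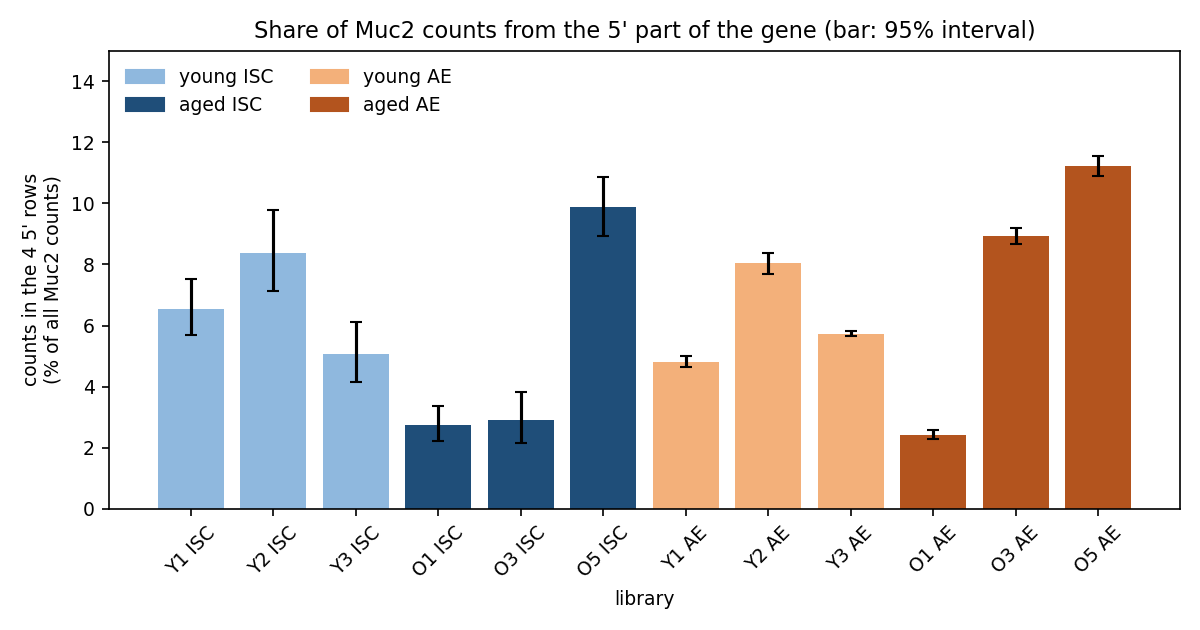
Share of *Muc2* counts that fell in its 4 5′ rows, in percent, for each library, with the 95% exact binomial interval. The share runs from 2.43% in O1 of aged AE to 11.2% in O5 of aged AE. In ISC, O5 is highest as well, with an interval that overlaps that of Y2, and O1 and O3 are lowest with overlapping intervals.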

How the data were processed

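RNA of sorted ISC and AE was sequenced from young and aged mice as 12 libraries, made with a directional poly(A) kit. Reads were trimmed with Trim Galore 0.4.4 and mapped to GRCm38 with HISAT2 2.1.0, per the labels, and the authors counted them over merged exons of each gene in SeqMonk. The deposited counts are raw; whether counting used strand and which annotation release was used are not given in the sources used here. The authors' log2 values for 49 genes were scaled to the 75th percentile of the libraries, and 2 members are among them. Deposited columns of the authors' FDR were not used.

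Columns were assigned by their own names, since in 8 of 12 titles the code and the remaining words name different groups. The members and gene lists were chosen with earlier results of these data known. Named genes were all members, the 3 most abundant of each further list and those called in it, of which a selection is printed, and the 5 most like the members by each of 2 measures.

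Genes with at least 10 counts in the libraries compared were tested in R 4.3.3 with edgeR 4.0.16 (TMM, glmQLFit with robust estimation, glmQLFTest) and an FDR threshold of 0.05, on the groups compared alone. The scripts were tested on simulated data. Ratios used a pseudocount of 0.5. Coordinates of genes and of *Muc2* rows are GRCm38, as given in the count table, and exon lengths are from GENCODE M21. Alternatives were RLE and upper-quartile scaling, other filters, DESeq2 1.42.0, thinning of the deepest library, a fit on all 12 libraries, a fit with replicate block, and omission of each library in turn. Summing the 5 rows of *Muc2* was added after the data were seen. The quasi-likelihood settings were also chosen then: a first fit with estimateDisp and legacy=TRUE was run on the pairs of groups and seen, and was replaced by the settings above to match an earlier processing of these data. The first settings are kept as an alternative and were not run for the difference of age effects. Libraries of the same code, in ISC and AE, deviated together from their group means (r from 0.22 to 0.48 over genes in 6 of 6 pairs, against -0.47 to 0.20 in 12 pairs of different codes), so the code was used as the block. Deviations within a group cancel out, so these kinds of pair are not independent. Over the members alone, r of pairs of the same code ran from -0.39 to 0.65. A count of 3 or fewer, between 0.0360 and 0.327 CPM, was taken as the limit of detection.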

Additional observations from a re-analysis of the deposited data

How the results depend on the processing

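DESeq2 called 2 members for age in ISC, where edgeR called 0. With the mean of the other members in place of *Muc2*, 2 ratios in ISC and 2 in AE did not overlap, against 1 in each. Leaving out a library gave 1 to 4 such ratios in ISC and 1 to 5 in AE. The share of all genes without overlap was not computed at these settings. With the replicate block, 7 members were called between the cell types in young mice, 8 in aged mice and 0 for the difference of age effects, the same counts as without it, while all genes called for that difference went from 1 to 19. The log2 change with age of *Zg16* in AE, 0.01, was -0.015 with upper-quartile scaling, -0.0020 with filterByExpr and -0.012 on all 12 libraries. The difference of age effects of *Tff3*, -0.16, was 0.030 with the block. When each library was left out, signs of uncalled values turned: in ISC, *Muc2* ran from -0.46 to 0.16, *Tff3* from -0.10 to 0.41 and *Agr2* from -0.19 to 0.10; in AE, *Tff3* from -0.29 to 0.46, *Muc2* from -0.069 to 0.55, *Fcgbp* from -0.15 to 0.27, *Zg16* from -0.26 to 0.43 and *Spdef* from -0.10 to 0.41; and the difference of age effects of *Tff3* from -0.47 to 0.26. The cause was not tested. The other counts of members called stayed within 1.5 times, and the quasi-likelihood settings run first called 0, 0, 7 and 8 members for age in ISC, age in AE, and the cell types in young and aged mice, as the reported ones did. Over all genes, DESeq2 called 58 for age in ISC, 18 in AE and 43 for the difference of age effects, against 0, 0 and 1 with edgeR. *Retnlb* had 3 counts or fewer in 11 of 12 libraries, the deepest among them, and its differences could not be read from such counts. Medians over the members leave it out, a choice made after its counts were seen; with it, they were -0.16 for age in ISC and 3.68 between the cell types in young mice.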

Other observations

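Relatives of the members were split between the cell types. *Clca4b* averaged 337 CPM in young ISC against 2197 CPM in young AE (log2 2.70, SE 0.24, FDR = 0.000118), and *Clca4a* 16.0 against 465 CPM (log2 4.85, SE 0.57, FDR = 0.000561). *Clca3b* was far more abundant in ISC than *Clca1* was, at 2055 CPM in young ISC against 145 CPM in young AE (log2 -3.83, SE 1.11, FDR = 0.0260), and *Clca3a2* was lower in AE too (log2 -3.21, FDR = 0.0455). In aged mice the log2 differences were 3.22, 8.32, -5.61 and -4.07 in that order, with FDR from 3.78e-06 to 0.000590. Reads of close copies in this family may be split by the counting, so the values of single copies are uncertain.

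The membrane mucins *Muc13* (953 CPM in ISC and 3698 CPM in AE of young mice, log2 1.96, FDR = 0.000692) and *Muc3* (116 and 888 CPM, log2 2.93, FDR = 8.60e-05) were higher in AE, and *Muc4* was lower in AE than in ISC of aged mice (log2 -2.27, FDR = 0.000965). Of 6 other mucins and trefoil genes tested for age in ISC and 8 in AE, 0 were called in either by edgeR. At an unadjusted P under 0.05 there were 0 and 1, and median log2 changes were 0.12 and -2.21. The AE median includes genes near the limit of detection, as 6 of the 11 genes counted were at 0 in all aged AE libraries. The most abundant, *Muc13*, *Muc3* and *Muc4*, were at -0.25, 0.60 and -1.34 in AE. Summed levels overlapped, from 4221 to 5574 CPM in young and from 3420 to 5843 CPM in aged AE.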
